A study of Homo sapiens with 24 samples.

Results

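HOX genes and the antisense RNA genes of their clusters were named by 126 of the 80150 peaks of the SWI/SNF subunits BRG1, BRM and SNF5 in RWPE1 cells that make SCHLAP1. Members were all peaks whose nearest transcription start site (TSS), in the deposited annotation, belongs to a HOXA, HOXB, HOXC or HOXD gene or to HOTAIR, HOTTIP, HOTAIRM1 or a gene named as HOX antisense. There were 60 such peaks among 51504 BRG1 peaks, 51 among 22157 BRM peaks and 15 among 6489 SNF5 peaks. Of these, 43, 34 and 12 were named for a protein-coding HOX gene and 17, 17 and 3 for an antisense gene. RWPE1 is a cell line from non-cancerous human prostate epithelium. The cells carried SCHLAP1, a long noncoding RNA, from a lentivirus and were selected with 2.5 ug/mL blasticidin. BRG1, BRM and SNF5 were precipitated from chromatin cut with MNase, in 2 samples each, and each subunit has 1 peak list.

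Subunits were profiled in SCHLAP1 cells and not in LACZ control cells, so no value here bears on an effect of SCHLAP1. The lists give positions in hg38 and widths in base pairs (bp), with no read counts, so the depth is unknown and no value has a replicate spread. A gene without a peak is a gene without a called peak. As a check of the cell label, BRG1 and BRM each named 6 of 7 genes of basal epithelium, and SNF5 named 2 of them. Of 6 luminal prostate genes, 2 were named by BRG1 and none by BRM or SNF5, and of 5 blood or stroma genes 3 were named by BRG1, none by a promoter peak. Over all protein-coding genes BRG1 named 63.5%, BRM 49.6% and SNF5 19.7%, so lists this short tell little about the label.

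HOX genes encode homeodomain transcription factors that give cells their place along the body axis. In mammals they lie in 4 clusters, and their order in a cluster, from the 3′ end to the 5′ end, follows the order in which they act from head to tail. Genes of the same number in different clusters are paralogs. Polycomb proteins keep the genes silent and trithorax proteins keep them active. SWI/SNF belongs to the trithorax side: in the fruit fly its ATPase brahma was identified through its control of homeotic genes. BRG1 and BRM are the human forms of that ATPase, of which a complex holds 1, and SNF5 is a subunit shared by the main forms of the complex. HOXB13, at the far 5′ end of the HOXB cluster, is known for its part in the prostate.

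Promoters of HOXA6, HOXD11, HOXD1 and HOXA4 were the 4, among 20 HOX promoters in the RefSeq promoter table, whose window met peaks of all 3 lists. They are shown because each window met peaks of all 3 lists, although none of the RefSeq starts was covered in all 3. Each sequence runs 5′ to 3′ on the strand of the gene, from 250 bases before the start to 50 after it (RefSeq, GRCh38.p14), and capitals mark the bases inside SNF5 peaks. The windows are chr7:27147725-27148024 on the minus strand for HOXA6, chr2:176107030-176107329 on the plus strand for HOXD11, chr2:176188418-176188717 on the plus strand for HOXD1 and chr7:27130708-27131007 on the minus strand for HOXA4.
HOXA6: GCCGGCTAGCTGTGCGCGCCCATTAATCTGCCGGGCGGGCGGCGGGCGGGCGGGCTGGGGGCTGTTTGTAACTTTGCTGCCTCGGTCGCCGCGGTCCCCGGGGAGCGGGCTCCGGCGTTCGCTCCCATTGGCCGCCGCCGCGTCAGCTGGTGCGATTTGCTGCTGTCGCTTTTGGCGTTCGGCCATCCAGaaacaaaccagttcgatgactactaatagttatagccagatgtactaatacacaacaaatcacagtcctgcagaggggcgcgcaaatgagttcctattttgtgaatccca
HOXD11: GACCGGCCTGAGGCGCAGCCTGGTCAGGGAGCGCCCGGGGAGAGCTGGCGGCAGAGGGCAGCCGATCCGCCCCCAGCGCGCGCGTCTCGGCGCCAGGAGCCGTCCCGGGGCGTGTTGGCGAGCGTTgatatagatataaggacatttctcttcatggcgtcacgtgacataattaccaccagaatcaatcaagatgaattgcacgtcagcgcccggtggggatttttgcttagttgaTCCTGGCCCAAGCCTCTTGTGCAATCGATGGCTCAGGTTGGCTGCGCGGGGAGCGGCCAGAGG
HOXD1: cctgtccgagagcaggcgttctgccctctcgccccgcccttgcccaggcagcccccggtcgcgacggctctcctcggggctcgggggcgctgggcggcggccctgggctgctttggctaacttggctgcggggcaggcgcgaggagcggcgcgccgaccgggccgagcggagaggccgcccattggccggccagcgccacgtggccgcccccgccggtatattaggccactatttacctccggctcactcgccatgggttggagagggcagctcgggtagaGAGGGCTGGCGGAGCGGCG
HOXA4: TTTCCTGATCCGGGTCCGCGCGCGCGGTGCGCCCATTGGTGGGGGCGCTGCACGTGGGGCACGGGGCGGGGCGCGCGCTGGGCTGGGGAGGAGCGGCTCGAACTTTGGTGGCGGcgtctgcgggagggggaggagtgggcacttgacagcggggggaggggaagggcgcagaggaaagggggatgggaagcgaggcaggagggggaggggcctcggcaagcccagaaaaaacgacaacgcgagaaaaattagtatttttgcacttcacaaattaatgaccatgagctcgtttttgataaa
SNF5 peaks held 190 bases of the HOXA6 window, 189 of the HOXD11 window, 19 of the HOXD1 window and 114 of the HOXA4 window. In HOXA6 and HOXA4 these were the bases farthest upstream. In HOXD11 they formed 2 blocks, belonging to 2 SNF5 peaks, with the unmarked bases of the window between them. In HOXD1 they were the last bases of the window, downstream of the start.

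The promoter windows were searched on both strands for TGANTCA (AP-1), TGACAG (MEIS), TGATNNAT (PBX-HOX), GGGCGG (the GC box) and CCAAT (NF-Y). Positions count from 1 at the 5′ end of each window. HOXA6 held 4 GC boxes on the forward strand, starting at 33, 37, 44 and 48, of which the first overlaps the second and the third overlaps the fourth. It also held CCAAT on the reverse strand at 127, so that all its matches lay within the SNF5 peak. HOXA4 held CCAAT on the reverse strand at 35 and a GC box at 64, both within the SNF5 peak, and TGACAG at 144, outside it. HOXD11 held a GC box on the reverse strand at 67, within an SNF5 peak, and TGATNNAT on the reverse strand at 184, between its 2 SNF5 peaks. HOXD1 held 4 GC boxes and 1 CCAAT, all outside the SNF5 peak. Over the 20 HOX windows, 17 (85.0%) held CCAAT, against 35.7% of 27305 RefSeq promoter windows. All 20 belong to protein-coding genes, while the 27305 also take in genes that are not protein-coding. Values over protein-coding windows alone were not computed, so the comparisons here are with an unlike set. GC boxes stood in 10 of the 20 (50%), against 44.6% of all windows, TGACAG in 4 (20%) against 15.9%, TGATNNAT in 3 (15%) against 7.60%, and TGANTCA in none against 7.76%. HOXC4 and HOXC5 share a start and hence a window. The median GC content was 58.0% in the HOX windows and 58.3% in all windows, and the median number of CpG dinucleotides was 22.5 and 14.0.

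How many HOX genes were named by each subunit was close to what protein-coding genes showed in general. BRG1 named 25 of the 39 HOX genes, or 64.1% (exact Clopper-Pearson 95% interval 47.2 to 78.8%), against 63.5% of 20037 protein-coding genes. BRM named 23, or 59.0% (42.1 to 74.4%), against 49.6%, and SNF5 named 8, or 20.5% (9.30 to 36.5%), against 19.7%. Each interval holds the share of all genes. These intervals cover counting error only and treat genes or peaks as independent, which neighbours in a cluster are not. By position, a BRG1 peak covered the RefSeq start of 20 HOX genes (51.3%) against 49.7% of 15843 genes. A BRM peak covered that of 15 (38.5%) against 38.2%, and an SNF5 peak that of HOXD11 alone (2.56%) against 7.61%. The measures differ: the 15843 starts all come from the promoter table, while HOX starts missing from it are ends of gene spans. HOXC4, HOXC5 and HOXC6 share a start, which was counted for each gene. Counting promoter peaks alone, BRG1 named 21 HOX genes (53.8%) against 55.6% of all genes, BRM 19 (48.7%) against 45.7% and SNF5 6 (15.4%) against 18.1%. BRG1 and BRM both named 21 of the genes, and 7 were named in every list: HOXA4, HOXA9, HOXA10, HOXB3, HOXB7, HOXD11 and HOXD12. For these joint counts the share of all protein-coding genes was not computed, so they describe the genes and show no excess.

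A name and a place are not the same thing in these compact clusters. BRG1 left 14 HOX genes unnamed, yet the starts of several, among them HOXA6, HOXA11, HOXC4, HOXC5, HOXC13 and HOXD1, lay under a BRG1 peak named for a neighbour, such as HOXA11-AS at HOXA11 and HOXC13-AS at HOXC13. HOXB4, unnamed as well, held a 402 bp BRG1 peak and a 155 bp SNF5 peak that carry the name HOXB3. By contrast, 6 genes, HOXA2, HOXB1, HOXB2, HOXB5, HOXD4 and HOXD9, were named in none of the lists and had no peak within 1 kb. How common this is among all protein-coding genes was not computed. HOXA11, HOXB4, HOXC5, HOXC13 and HOXD1 were also named by no peak of any list. The reverse held for HOXD3: its 1512 bp BRG1 peak lay 69 bp from the TSS of the deposited annotation, while no peak of any list fell within 1 kb of its RefSeq span.

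By the deposited annotation, HOX BRG1 peaks were more often promoter peaks than BRG1 peaks in general. Of the 60 HOX BRG1 peaks, 42 (70.0%, 56.8 to 81.2%) were promoter peaks, with their middle within 1000 bp of a TSS, against 37.3% of all BRG1 peaks. Intron peaks numbered 9 (15%, against 37.7%), exon peaks 3 (5.00%, against 3.11%) and distal peaks 6 (10%, against 21.9%). With promoter peaks counted instead as those with an edge within 1 kb of a RefSeq start of a HOX or HOX antisense gene, the share was 41.7%, a count in which antisense genes without a RefSeq start could not match. Starts stand close together in these clusters, and the part of that spacing in the promoter share was not tested. A BRM peak overlapped 37 of the 60 (61.7%, 48.2 to 73.9%), against 35.7% of all BRG1 peaks, with an overlap of at least 1 bp. Within promoter peaks alone, 31 of 42 HOX BRG1 peaks met BRM (73.8%, 58.0 to 86.1%), against 61.6%, and the interval holds the general share. SNF5 met 10 of the 60 (16.7%, 8.29 to 28.5%), against 9.58%, and 8 of the 42 promoter peaks (19.0%, 8.60 to 34.1%), against 21.2%. All 10 BRG1 peaks that met SNF5 also met BRM (16.7%, against 9.22% of all BRG1 peaks that met both), and 23 (38.3%) met neither, against 64.0% of all BRG1 peaks.

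In the smaller lists, the intervals of the HOX overlap shares held the shares of all peaks. Of 51 HOX BRM peaks 48 met a BRG1 peak (94.1%, 83.8 to 98.8%), against 92.2% of all BRM peaks, and 39 were promoter peaks (76.5%, 62.5 to 87.2%), against 62.8%. SNF5 met 10 of them (19.6%, 9.82 to 33.1%), against 21.9%. Intron, exon and distal BRM peaks numbered 7 (13.7%, against 19.6%), 3 (5.88%, against 3.37%) and 2 (3.92%, against 14.3%). The 3 without BRG1 were a 337 bp peak named for HOXA-AS2, a 369 bp peak in an intron of HOXB3 and a 311 bp peak that covers the start of HOXC12. Of 15 HOX SNF5 peaks 14 met BRG1 (93.3%, 68.1 to 99.8%), against 96.1%, 13 met BRM against 91.9% of all SNF5 peaks, and 12 were promoter peaks (80.0%, 51.9 to 95.7%), against 81.3%. The other 3 were 1 intron, 1 exon and 1 distal peak (6.67% each, against 7.98%, 2.31% and 8.43%). The exception to BRG1 was the 155 bp peak named HOXB3, at chr17:48577266-48577420, which met neither other list.

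The median HOX BRG1 peak was wider than the median of all BRG1 peaks, except in HOXB. Their median width was 932 bp (95% interval of the median 769 to 1324 bp), against 667 bp over all BRG1 peaks, and among promoter peaks it was 1190 bp (917 to 1512 bp) against 876 bp. By cluster the median was 979.5 bp in HOXA, 630 bp in HOXB, 1379.5 bp in HOXC and 998 bp in HOXD, and the interval in HOXB (401 to 1171 bp), HOXC (489 to 2758 bp) and HOXD (431 to 1933 bp) holds 667 bp. Widths of at least 3000 bp were found in 6 of the 60 (10%), against 1.29% of all BRG1 peaks. Among these 6, the HOXA cluster gave 4, named for HOXA9 (4245 bp), HOXA-AS3 (4164 bp), HOXA11-AS (3668 bp) and HOXA10 (3409 bp). The HOXD11 peak had 3530 bp and the HOXC11 peak 3439 bp. BRM peaks had a median of 643 bp (554 to 869 bp), against 547 bp, with 369 bp in HOXB, and SNF5 peaks of 191 bp (151 to 300 bp), against 212 bp. Width is a property of the called region and not an amount of protein.

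**Figure D1:**
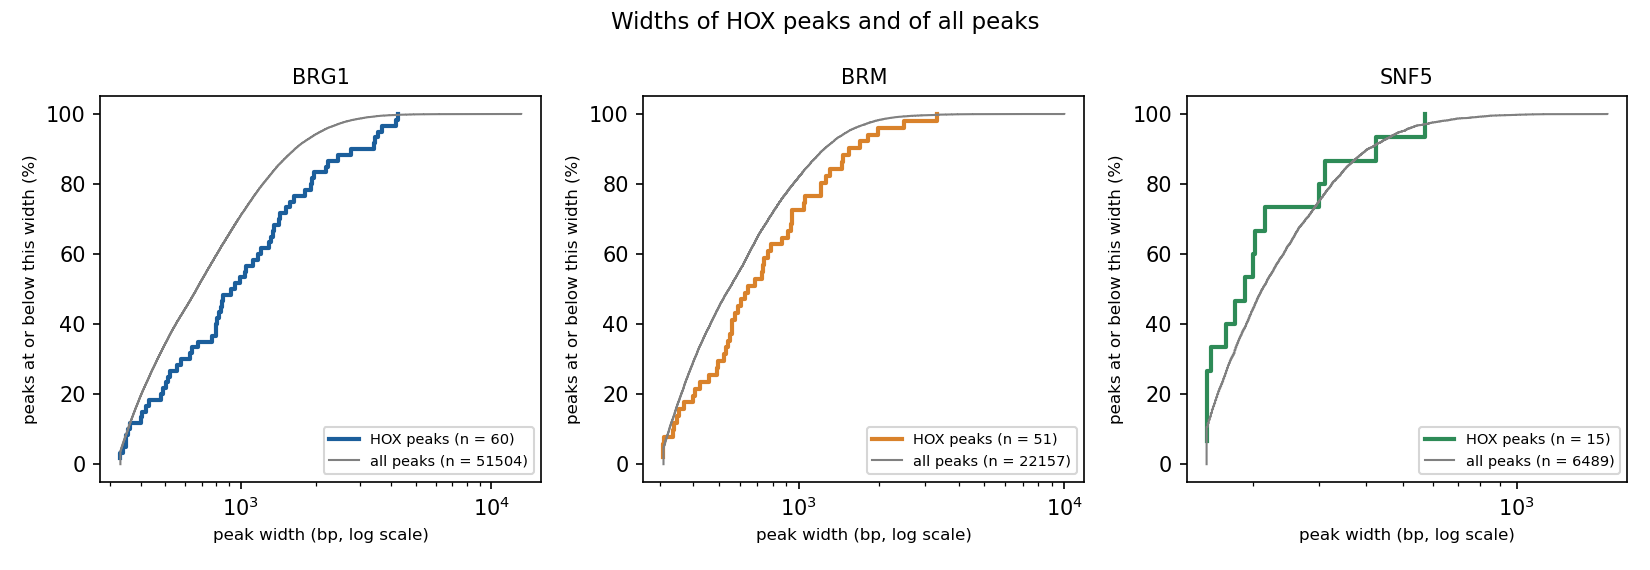
Cumulative share of peaks (y axis, percent) by peak width (x axis, bp, log scale) for BRG1, BRM and SNF5; coloured lines are HOX peaks and grey lines all peaks of the list. The BRG1 line of HOX peaks lies to the right of that of all peaks (medians 932 and 667 bp), while the SNF5 lines stay close (191 and 212 bp).

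Cover by peaks separated the 4 clusters more than the count of named genes did. Along the HOXA cluster (chr7:27092993-27200091), BRG1 peaks covered 42.6% of the bases, BRM peaks 29.3% and SNF5 peaks 2.00%. HOXD (chr2:176087487-176190907) had 16.5%, 10.01% and 1.18%, and HOXC (chr12:53938831-54056030) had 16.6%, 6.69% and 0%. HOXB (chr17:48528526-48728750) had 3.37%, 1.73% and 0.153%, and its compact stretch HOXB1 to HOXB9 had 5.81%, 3.22% and 0.313%. Over all chromosomes the values were 1.53%, 0.524% and 0.0565%. HOXA thus led in every list, HOXC and HOXD were alike in BRG1, and HOXC was without a called SNF5 peak although it held 13 BRG1 and 13 BRM peaks. None of the 10 BRG1 peaks named for HOXC genes met SNF5, which with so few peaks allows a share of up to 30.8% (exact interval). That interval holds the 9.58% of all BRG1 peaks that met SNF5. Over all chromosomes SNF5 had 0.222 peaks per 100 kb, so a span of this length without one is not unusual.

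**Figure D2:**
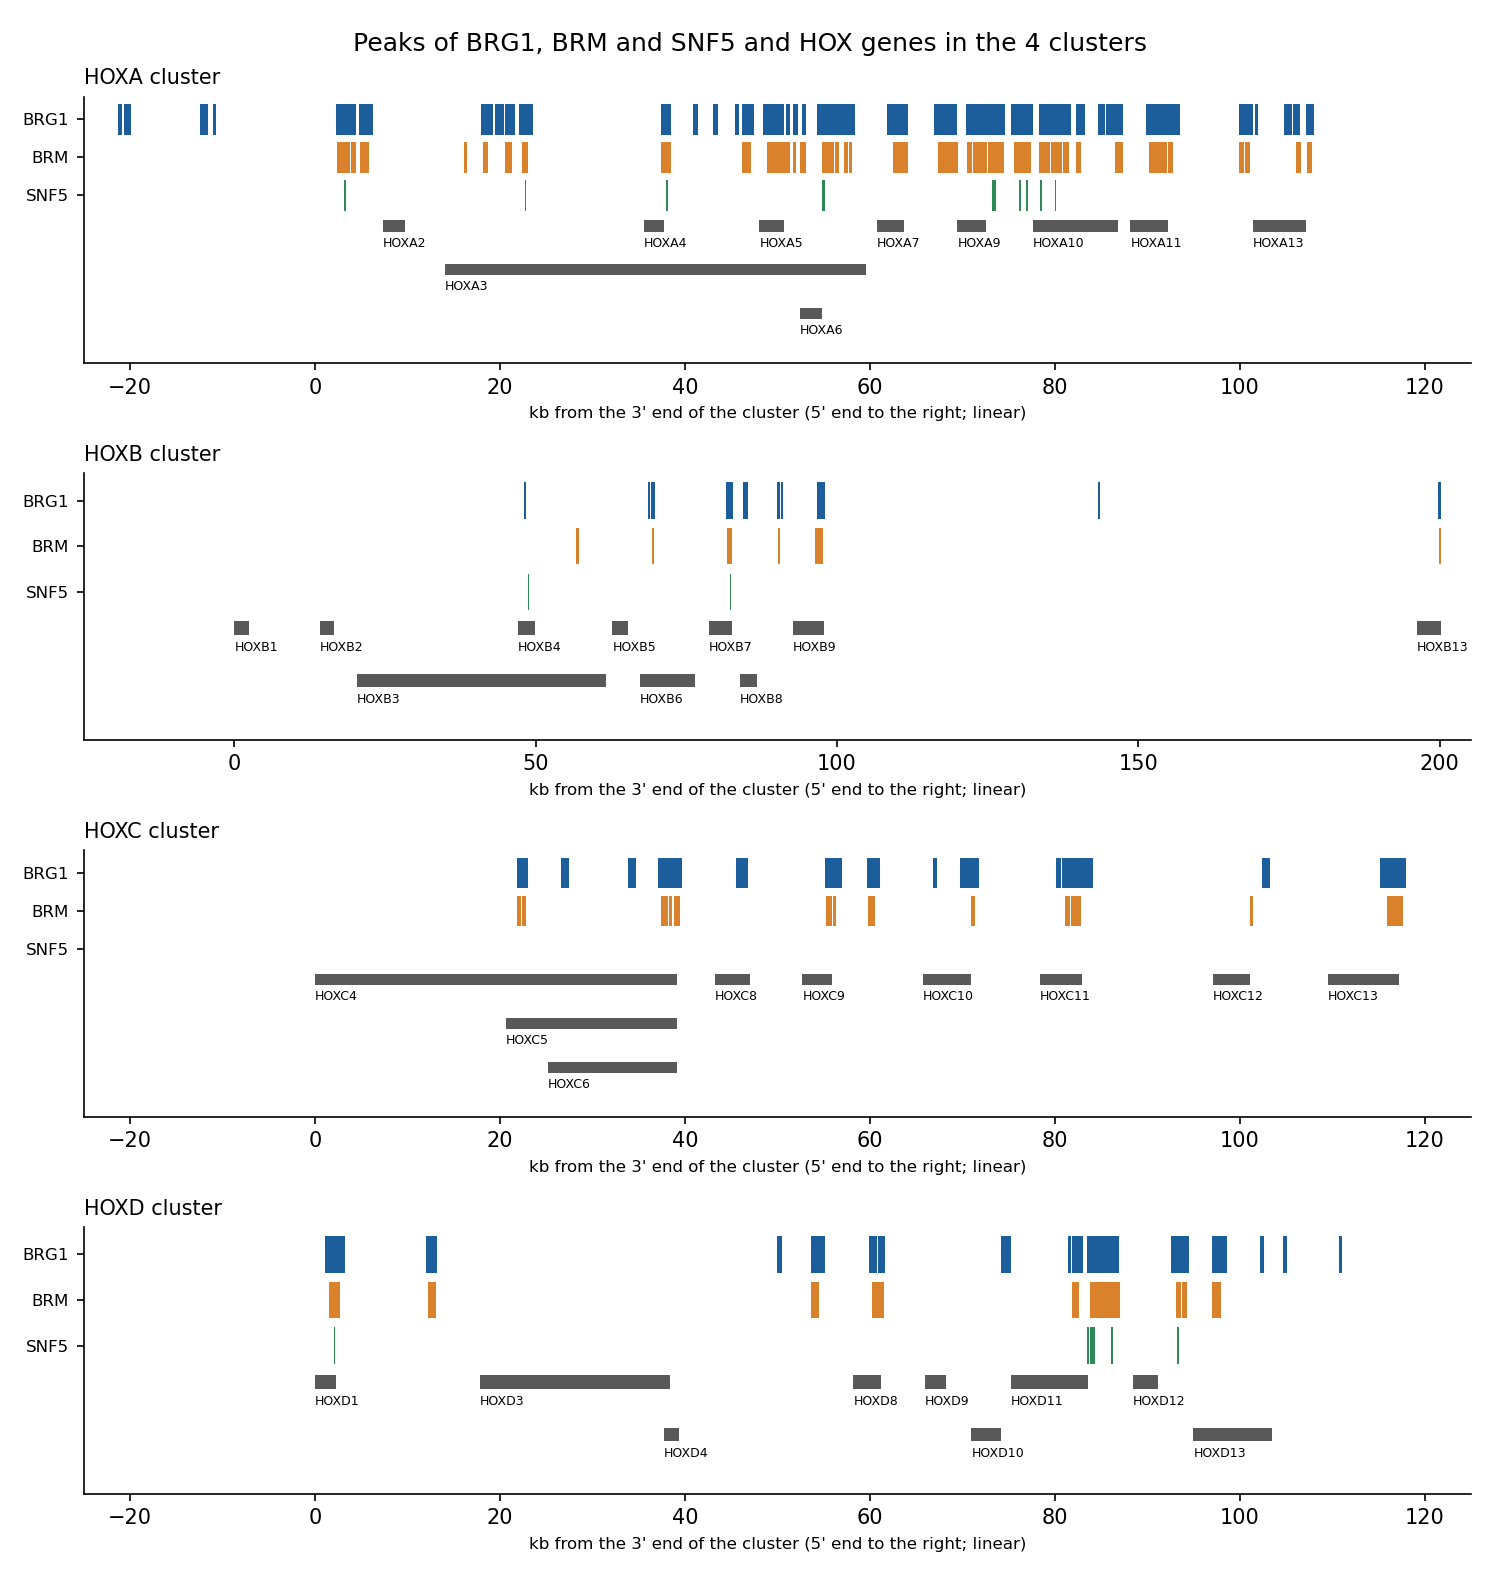
Peaks of BRG1 (blue), BRM (orange) and SNF5 (green) in the 4 HOX clusters, with RefSeq spans of the protein-coding HOX genes reported here in grey; the x axis is the distance in kb from the 3′ end of the cluster, and each box is drawn to scale. HOXA is filled with BRG1 peaks for 42.6% of its length, HOXC has no SNF5 peak, and the first 48.0 kb of HOXB are empty in BRG1.

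BRG1 and BRM cover was higher inside each cluster than in its flanks. BRG1 peaks covered 42.6% of HOXA, against 4.19% of the 100 kb beyond its 3′ end and 2.63% of the 100 kb beyond its 5′ end. HOXD had 16.5% inside, against 2.06% and 2.95% in its flanks, HOXC 16.6%, against 0% and 4.35%, and HOXB 3.37%, against 0% and 0.436%. In BRM the fullest flank, beyond the 5′ end of HOXC, had 1.73%. In SNF5 the flanks held a single peak, of 151 bp, beyond the 5′ end of HOXC (0.151%), the cluster with 0% inside. At its 3′ end HOXB was as empty inside as outside. Of the HOXA flank on the 3′ side, 3 BRG1 peaks of 675, 769 and 331 bp carried the name HOTAIRM1 from 22916, 14650 and 13492 bp away. They met no BRM and no SNF5 peak.

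**Figure D3:**
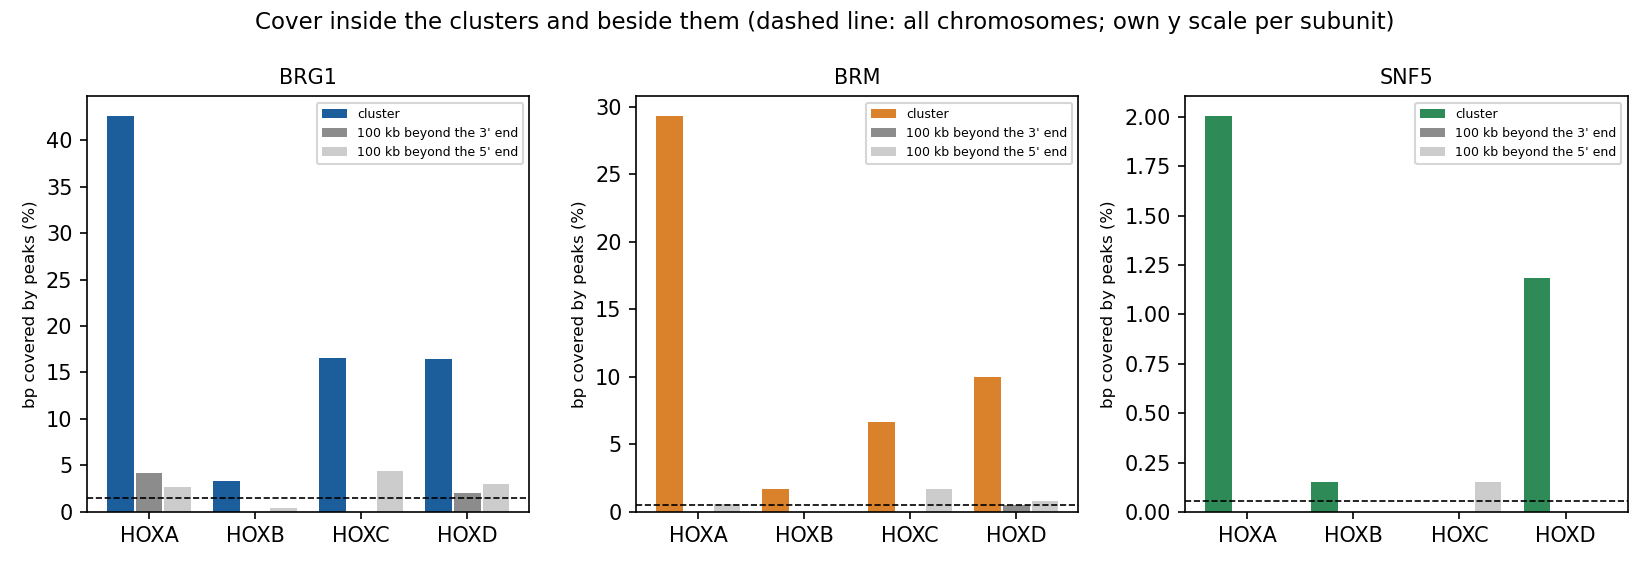
Share of bases covered by peaks (y axis, percent, from 0, own scale per subunit) in each cluster (coloured bars) and in the 100 kb beyond its 3′ end (dark grey) and 5′ end (light grey); the dashed line is the share over all chromosomes. In BRG1 the HOXA bar stands at 42.6%, against 4.19% and 2.63% in its flanks.

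The fullest part differed between the clusters. By name, genes were rarer among paralogs 1 to 3, the 3′ genes: BRG1 named 3 of 8 (37.5%, 8.52 to 75.5%), against 9 of 15 paralogs 4 to 8 (60%, 32.3 to 83.7%) and 13 of 16 paralogs 9 to 13 (81.3%, 54.4 to 96.0%). BRM named 3, 9 and 11 of these groups, and SNF5 named 1, 3 and 4. The intervals of the 3 groups overlap. By place the order was not the same in every list: a BRG1 peak lay within 1 kb of 4, 13 and 13 of these genes and a BRM peak within 1 kb of 4, 10 and 13, but an SNF5 peak within 1 kb of 4, 4 and 3. The share of all protein-coding genes by this measure was not computed, and gene spans differ in length. BRM peaks covered 2, 8 and 5 of the starts. With each span cut into 4 equal parts from 3′ to 5′, BRG1 covered 32.6%, 27.4%, 65.3% and 45.0% of HOXA. From HOXB1 to HOXB9 it covered 0%, 1.64%, 4.00% and 17.6%, and in HOXD 12.7%, 2.15%, 15.9% and 35.1%. In HOXC the middle parts were the fuller ones, with 7.19%, 22.9%, 26.7% and 9.71%. SNF5 peaks were bunched: the parts of HOXA held 2, 1, 6 and 0, and those of HOXD held 1, 0, 0 and 4.

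**Figure D4:**
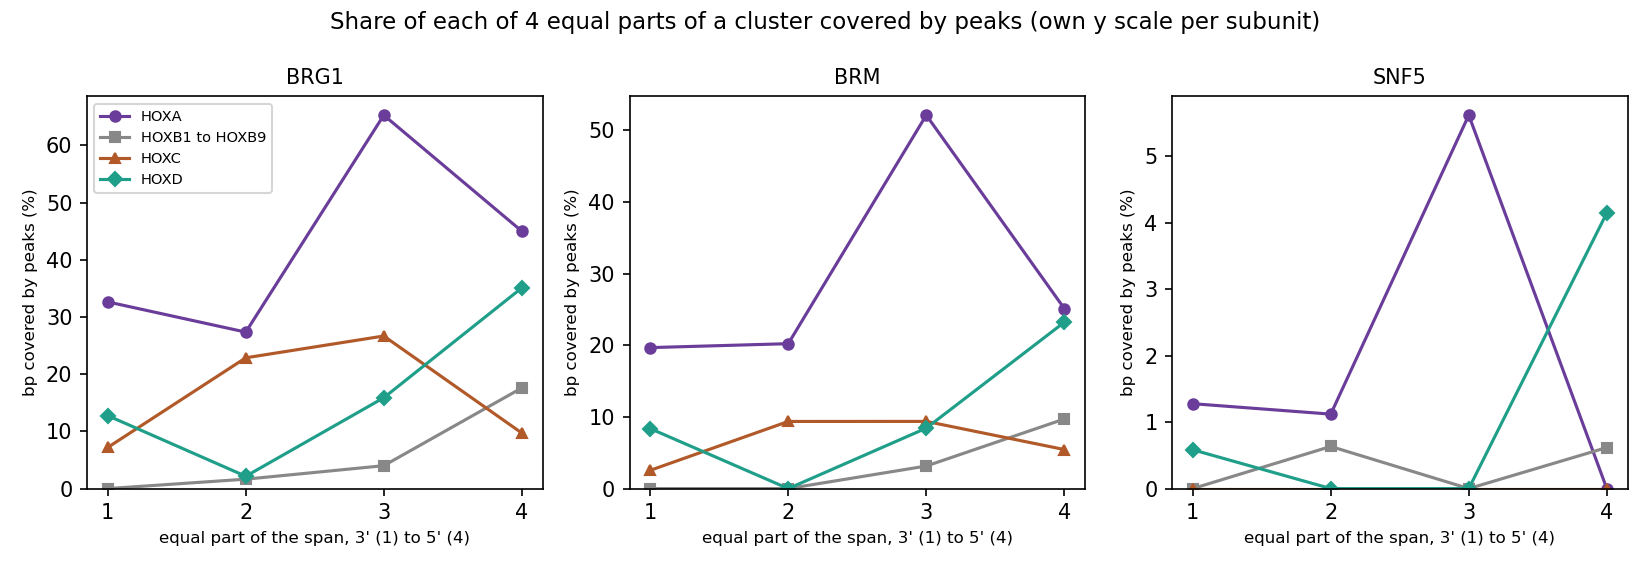
Share of bases covered by peaks (y axis, percent, own scale per subunit) in 4 equal parts of each cluster from 3′ (1) to 5′ (4), for HOXA (circles), HOXB1 to HOXB9 (squares), HOXC (triangles) and HOXD (diamonds). BRG1 reached 65.3% in part 3 of HOXA and 35.1% in part 4 of HOXD, and HOXC stayed at 0 in SNF5.

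Near the 3′ end of HOXA lies HOTAIRM1, a noncoding RNA gene known from myeloid cells. A 2234 bp BRG1 peak (chr7:27095237-27097470) was named for it, with a 1457 bp BRM peak and a 191 bp SNF5 peak 11 bp from the TSS of HOTAIRM1. A second pair of 1424 bp (BRG1) and 909 bp (BRM) followed inside HOTAIRM1. HOXA2 had no peak. HOXA3, whose long span takes in its neighbours up to HOXA6, was named by 5 BRG1 peaks and 2 BRM peaks and by no SNF5 peak. Also within that span, the antisense gene HOXA-AS2 had BRG1 peaks of 1116 and 1568 bp and an SNF5 peak of 151 bp, the smallest width in that list. They lay near TSSs of the deposited annotation, while the RefSeq span of HOXA-AS2 had no peak of any list within 1 kb. That span fell inside the longest stretch of HOXA without BRG1, 13860 bp, which ended at HOXA4.

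HOXA4 had overlapping BRG1, BRM and SNF5 peaks at its promoter. They were 1052 bp (chr7:27130429-27131480), 1045 bp (chr7:27130455-27131499) and 300 bp (chr7:27130894-27131193), and a second BRG1 peak of 578 bp (chr7:27133860-27134437) met no other list. HOXA5, known as a regulator of p53 in breast cells, had BRG1 peaks of 2195, 419 and 505 bp and BRM peaks of 2492 and 339 bp. HOXA6 was named by BRM peaks of 1269 bp (chr7:27147829-27149097), 408 bp (chr7:27150218-27150625) and 349 bp (chr7:27150699-27151047) and by an SNF5 peak of 311 bp (chr7:27147835-27148145). All of these lay under the 4164 bp BRG1 peak named HOXA-AS3 (chr7:27147243-27151406). HOXA7 had BRG1 peaks of 349 and 1803 bp and a BRM peak of 1552 bp.

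HOXA9 and HOXA10, leukaemia-linked transcription factor genes that also pattern the reproductive tract, stood at the centre of the fullest stretch. From 27159958 to 27176221 on chromosome 7, 5 BRG1 peaks with gaps under 1 kb covered 13453 of 16264 bp. HOXA9 gave its name to BRG1 peaks of 4245 bp (chr7:27163354-27167598), 2453 bp (chr7:27168219-27170671) and 917 bp (chr7:27175305-27176221). Its BRM peaks were 576 bp (chr7:27163449-27164024), 1464 bp (chr7:27164143-27165606), 1821 bp (chr7:27165707-27167527) and 592 bp (chr7:27175245-27175836). Its SNF5 peaks were 424 bp (chr7:27166162-27166585), 170 bp (chr7:27169893-27170062) and 203 bp (chr7:27171421-27171623). The first 3 BRM peaks and the widest SNF5 peak thus lay within the outline of a single BRG1 peak that covers the start of the gene. Of the BRG1 peaks, that one alone met the RefSeq span of HOXA9, and no SNF5 peak did. The 917 bp BRG1, 592 bp BRM and 203 bp SNF5 peaks lay inside the RefSeq span of HOXA10.

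HOXA10 was named by a BRG1 peak of 3409 bp (chr7:27171283-27174691). Its BRM peaks were 1214 bp (chr7:27171260-27172473), 1218 bp (chr7:27172529-27173746) and 643 bp (chr7:27173860-27174502), and its SNF5 peak was 180 bp (chr7:27172968-27173147). These lie inside the RefSeq span of HOXA10, downstream of its RefSeq start at 27179861, and that start was covered by a BRG1 peak of another name. HOXA10-AS had a 216 bp SNF5 peak (chr7:27169135-27169350), which lay inside the 2453 bp BRG1 peak named HOXA9. Toward the 5′ end, the start of HOXA11 lay under the 3668 bp BRG1 peak of HOXA11-AS, which met 2 BRM peaks and no SNF5 peak. HOXA13 had a single named peak, of 331 bp, the smallest width in the BRG1 list, but 4 BRG1 peaks met its RefSeq span. HOTTIP, an RNA made from the 5′ tip of the cluster and known to act with the trithorax partner WDR5, had BRG1 peaks of 832, 808 and 821 bp (the last listed as HOTTIP_1). Of these, 2 met BRM and none met SNF5. The 832 and 808 bp peaks lay inside the RefSeq span of HOXA13 and outside that of HOTTIP.

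MIR196B, a microRNA gene between HOXA9 and HOXA10, lay whole within the 2453 bp BRG1 peak named HOXA9 and within a 1820 bp BRM peak that carries its own name (chr7:27168620-27170439). It is shown with its relatives because microRNAs of the clusters are themselves regulators of HOX messages, and capitals mark the seed, bases 2 to 8 (RefSeq, GRCh38.p14).
miR-196b-5p: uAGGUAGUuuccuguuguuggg
miR-196a-5p: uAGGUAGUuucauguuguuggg
miR-10a-5p: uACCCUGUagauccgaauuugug
miR-615-3p: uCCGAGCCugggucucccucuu
The seeds of miR-196b-5p and miR-196a-5p are the same. The hairpins of MIR196A1 in HOXB, MIR196A2 in HOXC, MIR10A in HOXB and MIR10B in HOXD met no peak of any list, so that of the genes with this shared seed the copy in HOXA was the one inside peaks. MIR615, in HOXC, lay within a 1255 bp BRG1 peak and a 359 bp BRM peak. No hairpin met an SNF5 peak.

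**Figure D5:**
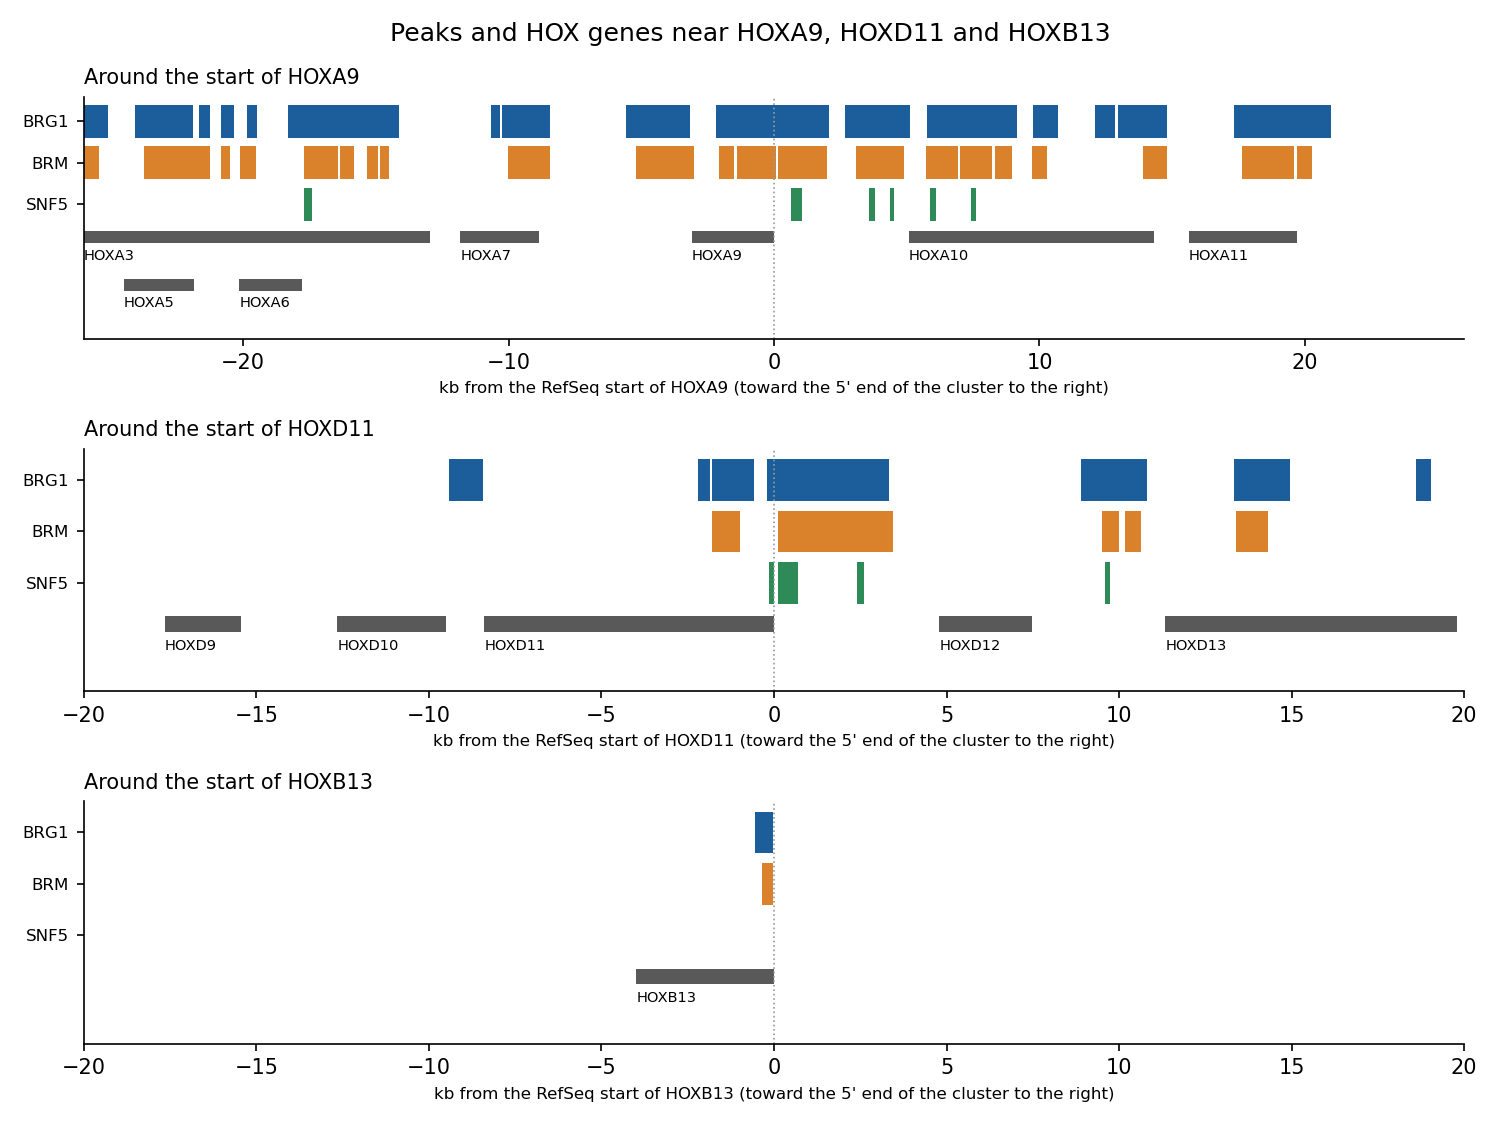
Peaks of BRG1, BRM and SNF5 around the RefSeq starts of HOXA9, HOXD11 and HOXB13; the x axis is the distance in kb from the start (dotted line), with the 5′ end of the cluster to the right, and grey boxes are RefSeq gene spans. HOXA9 and HOXD11 start under BRG1 peaks of 4245 and 3530 bp, and at HOXB13 the peaks of 522 and 310 bp end just short of the start.

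HOXB was the sparse cluster, and its 3′ genes were bare. The first 47997 bp held no BRG1 peak, the first 56743 bp no BRM peak and the first 48740 bp no SNF5 peak, a stretch that takes in HOXB1 and HOXB2. HOXB3 was named by a 402 bp BRG1 peak in an exon (chr17:48576523-48576924), a 369 bp BRM peak in an intron (chr17:48585269-48585637) and the lone 155 bp SNF5 peak. The 3 peaks did not overlap one another. HOXB6 had BRG1 peaks of 349 and 630 bp and a BRM peak of 401 bp, and HOXB8 had BRG1 peaks of 947, 638 and 401 bp and a BRM peak of 354 bp.

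HOXB7, a gene linked to growth of several epithelial cancers, was the HOXB gene with peaks of all 3 subunits at its promoter. Its BRG1 peak of 1171 bp (chr17:48610171-48611341) held a BRM peak of 768 bp (chr17:48610258-48611025) and an SNF5 peak of 151 bp (chr17:48610702-48610852). HOXB9 had the widest BRG1 peak of the cluster, 1299 bp (chr17:48625214-48626512), with BRM peaks of 943 bp (chr17:48624905-48625847) and 310 bp (chr17:48625912-48626221) and no SNF5 peak.

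HOXB13, the prostate-linked gene, had small and isolated peaks. BRG1 was called over 522 bp (chr17:48728198-48728719), wider than 37.0% of BRG1 peaks, and BRM over 310 bp (chr17:48728407-48728716), the smallest width in the BRM list. No SNF5 peak was called. Both peaks lay inside the gene, ending 31 bp (BRG1) and 34 bp (BRM) short of its RefSeq start at 48728750. By the distances of the deposited annotation they were promoter peaks, with their middles 717 and 614 bp from the TSS. The nearest other BRG1 peaks were 56030 bp away toward HOXB9 (LINC02086) and 88499 bp away on the other side (TTLL6), and the nearest other BRM peaks were 102185 and 102364 bp away. PRAC1 and PRAC2, the small prostate genes between HOXB9 and HOXB13, were named by no peak in any list.

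In HOXC, BRG1 and BRM peaks stood at most starts and SNF5 at none. SNF5 covered 1 start among all 39 HOX genes, so this is not particular to HOXC. HOXC4, HOXC5 and HOXC6 share a RefSeq start, which lay under peaks of both ATPases. HOXC6 was named by BRG1 peaks of 489 and 852 bp, and HOXC4 by a BRM peak of 686 bp. The 489 bp peak lay inside the RefSeq span of HOXC10. HOXC8 had a 1324 bp BRG1 peak. A 1435 bp BRG1 peak and a 629 bp BRM peak were named for HOXC9, and that BRG1 peak lay outside its RefSeq span. The RefSeq start of HOXC9 lay under the 629 bp BRM peak and a 1902 bp BRG1 peak named HOXC-AS1. HOXC10 had a BRG1 peak of 1970 bp (chr12:53984291-53986260), which met a 426 bp BRM peak named for HOXC-AS3. HOXC11 had the widest peak of the cluster, BRG1 over 3439 bp (chr12:53971875-53975313), with BRM over 1061 bp (chr12:53973198-53974258).

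HOTAIR, the noncoding RNA of HOXC known for work on Polycomb proteins, was named by a 481 bp BRG1 peak (chr12:53975388-53975868), which met no BRM peak. Its 524 bp BRM peak (chr12:53974382-53974905) fell inside the BRG1 peak of HOXC11. HOXC12 had an 841 bp BRG1 peak annotated as distal and a 311 bp BRM peak at its start, which did not meet. HOXC13, at the 5′ end, began under the 2758 bp BRG1 and 1704 bp BRM peaks of HOXC13-AS.

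HOXD, whose 5′ genes pattern limbs and the urogenital tract, was fullest at its 5′ end, with 36787 bp free of BRG1 between HOXD-AS2 and HAGLR. HOXD11 led. BRG1 was called over 3530 bp (chr2:176103951-176107480) and BRM over 3317 bp (chr2:176103838-176107154), the widest BRM peak of all HOX members. SNF5 was called over 200 bp (chr2:176104672-176104871), 570 bp (chr2:176106586-176107155), the widest HOX SNF5 peak, and 151 bp (chr2:176107267-176107417). The last of these covered the RefSeq start at 176107280, and part of it is the second capital block of the HOXD11 promoter. The deposited annotation called the BRG1 peak an intron peak, since its middle was 1497 bp from the nearest TSS of that annotation. That TSS is not the RefSeq start, which the peak covers.

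HOXD12 was named by peaks outside the gene: BRG1 over 1933 bp (chr2:176096461-176098393), BRM over 460 bp (chr2:176096659-176097118) and 497 bp (chr2:176097292-176097788), and SNF5 over 151 bp (chr2:176097537-176097687). All were distal, from 2115 to 2839 bp away. HOXD13 had BRG1 peaks of 1629 and 431 bp and a BRM peak of 945 bp, and HOXD10 had BRG1 peaks of 1209, 339 and 998 bp and a BRM peak of 785 bp, of which the 1209, 339 and 785 bp peaks lay inside the RefSeq span of HOXD11. HOXD8 had BRG1 peaks of 799 and 797 bp, both of which met a BRM peak of 1313 bp. At the 3′ end, HOXD1 was named by no peak, yet its start lay under a 2146 bp BRG1 peak, and the BRG1, BRM and SNF5 peaks there carry the name MIR7704.

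Genes that work with or on HOX genes also held peaks. Of 9 TALE cofactors, the homeodomain partners of HOX proteins, 7 were named by BRG1, 7 by BRM and 3 by SNF5. PBX3, MEIS1 and MEIS2 were those with SNF5, and the widest BRG1 peak of PBX3 had 2298 bp. Of 8 trithorax activators, all 8 were named by BRG1 and by BRM and 3, KMT2A, KMT2B and RBBP5, by SNF5. Of 15 Polycomb genes, 14 were named by BRG1, 9 by BRM and 5 by SNF5, and CBX7 by none. Retinoic acid, a signal that switches on 3′ HOX genes, is represented by 11 genes, of which BRG1 named 9, BRM 8 and SNF5 5. The nuclear receptor genes RARG and RXRA had BRG1 peaks up to 5675 and 4694 bp wide, wider than any HOX peak, while RARB and CRABP1 were named in none of the lists. Of 8 ParaHox and EVX genes, the closest relatives of HOX genes, 6 were named by BRG1, 3 by BRM and 0 by SNF5. Of 15 genes that flank the clusters, BRG1 named 13, BRM 11 and SNF5 2. Over all protein-coding genes the shares named were 63.5% (BRG1), 49.6% (BRM) and 19.7% (SNF5), and none of these short lists was tested against them.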

How the data were processed

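Per the labels' protocols, RWPE1 cells were crosslinked for 30 min with 0.3% formaldehyde, which 125 mM glycine then stopped. Of 24 samples in 12 groups of 2, the histone mark and input samples were not analysed here. The submitters' processing notes name hg38, Bowtie2, SAMtools, deepTools 2.5.2 and MACS2 without roles. Threshold, input and pooling of replicates were not given in the sources used here. For each subunit the authors deposited 1 list with start, end, width, place, nearest TSS and distance of each peak, and no score or count.

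Gene spans and starts were those of RefSeq (GRCh38.p14), and overlaps of at least 1 bp were counted with pandas 2.3.3 under Python 3.11.15. Exact binomial 95% intervals came from scipy 1.17.1. Spans run between the outermost HOX gene ends. Starts missing from the promoter table were taken as the 5′ end of the gene span. Antisense genes without a start in that table have none here. The routines were tested on simulated data. No comparison was tested, since there is 1 list per subunit. The members, the gene lists and the alternatives were chosen with earlier results of these data known. Named in full were HOXB13, the genes with an SNF5 peak and the 2 genes per cluster with the widest BRG1 peak. Some genes that this rule or these lists take are counted but not reported here by name.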

Additional observations from a re-analysis of the deposited data

How the results depend on the processing

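Of 81 alternative values for 20 results, 49 stayed within the limits set for a change and 32 moved. These limits differed in width between kinds of value. The SNF5 promoter share stayed within them at 53.3% against 80.0%, while BRG1 cover of HOXD counted as moved at 15.4% against 16.5%. The split is thus no measure of stability. The lists hold no score, so width stood in for a stricter threshold. With the wider 50% of each list, SNF5 named 4 HOX genes in 5 peaks and BRM had 33 HOX peaks. The promoter share was then 85.0% for BRG1 and 100% for SNF5, all SNF5 peaks (100%) met BRG1, and median widths were 1349.5 bp (BRG1), 936 bp (BRM) and 311 bp (SNF5). BRG1 cover was then 39.4% in HOXA, 1.71% in HOXB, 15.8% in HOXC and 15.2% in HOXD. With the 6489 widest peaks of each list, BRG1 named 10 HOX genes in 17 peaks and BRM 14 in 20. Of those BRG1 peaks 76.5% (13 of 17) met BRM and 47.1% (8 of 17) met SNF5, and 70.0% (14 of 20) of the BRM peaks met BRG1. For lists cut by width, matching shares over all peaks kept were not computed, so the shares of the full lists are no like comparison. With the 6489 widest peaks, BRG1 cover was 29.5% in HOXA, 0% in HOXB, 10.2% in HOXC and 10.4% in HOXD. With 5 kb added to both ends of a span it was 39.6%, 3.21%, 15.9% and 15.4% in these clusters. HOXA kept the highest cover and HOXB the lowest under each. Counting peaks within 1 kb of each other as meeting, 76.7% of HOX BRG1 peaks met BRM and 100% of SNF5 peaks met BRG1. Counting as promoter peaks those whose edge lies within 1 kb of a RefSeq start of a HOX or HOX antisense gene gave 41.7% for BRG1, 54.9% for BRM and 53.3% for SNF5. In this count antisense genes without a start in the RefSeq table could give no match. No paired analysis was possible because each subunit has 1 peak list and no test was made. Leaving out a replicate could not be done for the same reason. The lists give no depth, so a missing peak sets no limit on binding.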
